A study of Mus musculus with 4 samples.

Results

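The genes of innate microbial sensing described here were measured in cells sorted for FAP, the membrane-bound protease known as fibroblast activation protein, from pancreatic ductal adenocarcinoma of mice. They are the Toll-like receptor genes Tlr1, Tlr2, Tlr3, Tlr4 and Tlr5, the co-receptor gene Cd14, the adaptor genes Myd88 and Ticam1 and the cytosolic receptor genes Nod1 and Nod2. The 10 genes were chosen by lower-case symbol (tlr1, tlr2, tlr3, tlr4, tlr5, cd14, myd88, ticam1, nod1, nod2), and all 10 were found among the 22609 genes of the count table. There were 4 RNA libraries, 2 for each sorted fraction (FAP+ CD34+ and FAP+ CD34-), from cells isolated in duplicate experiments. CD34 is a mucin-like surface protein found on blood progenitors, endothelium and some stromal cells. All 4 libraries came from a tumour model that arises spontaneously on the C57BL/6 background. The sources used here do not give driver alleles, age or the number of animals behind a library, and there was no normal pancreas or unsorted tumour among the samples. By its title the series is about CXCL12 from fibroblasts of the tumour, and the comparison asks how FAP+ cells with and without CD34 differ.

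Toll-like receptors bind conserved microbial molecules at the cell surface or in endosomes and signal through adaptors. MyD88 serves all of them but TLR3, and it also serves the receptors of the interleukin-1 family. TRIF, the product of Ticam1, serves TLR3 and endocytosed TLR4 and leads to interferon as well as to NF-kB. NOD1 and NOD2 sense fragments of bacterial cell wall in the cytosol through the kinase RIPK2. In fibroblasts these routes are known for inducing chemokines and interleukin-6.

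Total counts were between 10322354 and 14633561 per library, and levels below are counts scaled to a common library total (CPM) unless a sentence names RPKM, the deposited value per length and sequenced reads. The sort markers followed the labels. Cd34 stood at 143 and 293 CPM in the CD34+ fraction against 18.3 and 23.9 CPM in the CD34- fraction, and Fap, present in all 4, was 79.0 and 39.8 against 142 and 136 CPM. Of the fibroblast markers, the collagen gene Col1a2 lay between 15840 and 18149 CPM in all 4 libraries, but others of the 10 differed more, chosen here after their values were seen. Pdgfrb was 296 and 330 against 599 and 486 CPM, Pdpn 741 and 501 against 184 and 374 CPM, and Dcn 2344 and 6188 against 1520 and 2659 CPM. Markers of other cells were also present. The 16 macrophage and monocyte markers summed to 246 and 138 CPM in CD34+ libraries and to 122 and 73.0 CPM in CD34- libraries, with none of them at 0 in any library and Lyz2 the most abundant. The 9 endothelial markers, led by Vwf, summed to 89.4 and 72.8 against 39.4 and 44.6 CPM. The 5 mesothelial markers, led by Wt1, summed to 264 and 143 against 137 and 99.02 CPM. Epithelial and acinar markers, led by Krt8, summed to 762 and 551 against 785.5 and 400.0 CPM, and pericyte markers, led by Cspg4, to 380 and 290 against 403 and 516 CPM. Neutrophil markers (led by Ltf), dendritic cell markers (led by Zbtb46) and lymphocyte markers (led by Cd3e) each summed to at most 29.5 CPM in every library, and 5 of the 8 lymphocyte markers were at 0 in at least 1 library. In sorted bulk RNA, fewer cells of a type and less RNA per cell cannot be told apart.

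Per length, the mean levels of the 10 genes spanned 3 orders of magnitude, with the adaptor Myd88, the co-receptor Cd14 and Nod1 on top. Myd88 was 23.2 and 37.0 RPKM in CD34+ and 38.6 and 44.1 RPKM in CD34- libraries, above 92.2% to 93.5% of all genes in each library. Cd14 was 42.9 and 26.3 RPKM in CD34+ and 41.6 and 20.03 RPKM in CD34- libraries. Myd88 and Cd14 exchanged the first 2 ranks between libraries, so their order is not resolved. Nod1 held rank 3 in all 4 libraries, at 10.3 and 12.4 against 11.4 and 9.90 RPKM. Tlr2 held rank 4 in all 4 and was the most abundant Toll-like receptor, at 3.33 and 6.51 against 4.57 and 7.72 RPKM. Tlr4, Tlr3 and Ticam1 followed with means of 2.31 ± 0.946, 1.44 ± 0.398 and 1.11 ± 0.359 RPKM (SD, n = 4 libraries), and these neighbours lay within their spread. Tlr4 ranked above Tlr3 in every library but CD34+ replicate 1, where Ticam1 ranked above both. Tlr5 (0.282 ± 0.160 RPKM, SD, n = 4), Nod2 (0.0839 ± 0.0555) and Tlr1 (0.0329 ± 0.0278) were the lowest, in that order in every library.

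**Figure D1:**
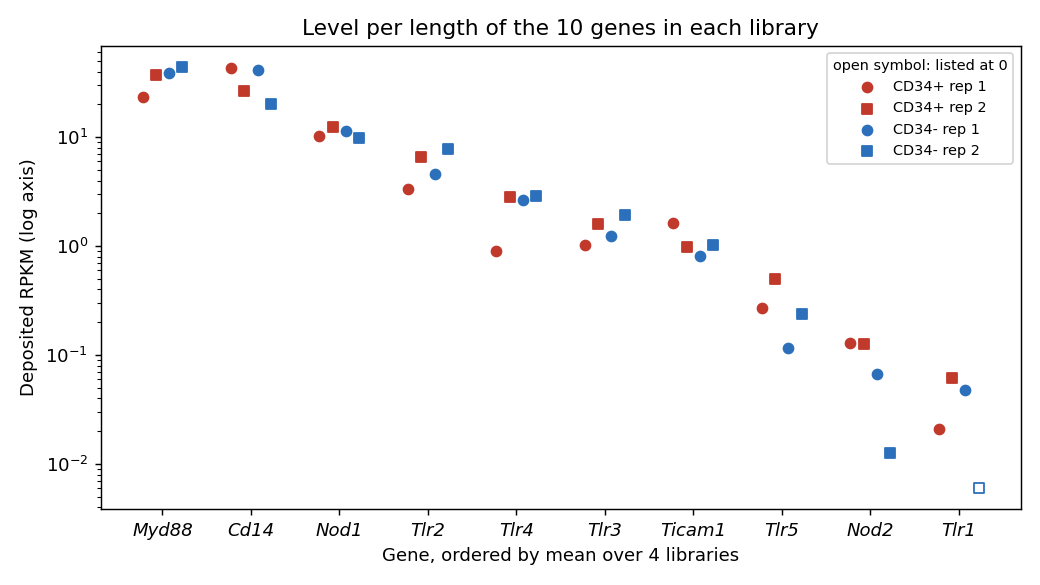
Deposited RPKM (log axis) of the 10 genes in each of the 4 libraries, red for CD34+ and blue for CD34-, circles for replicate 1 and squares for replicate 2, with 1 open symbol for the library in which Tlr1 was listed at 0. Myd88, Cd14 and Nod1 lie at about 10 RPKM or above in all libraries, and Tlr5, Nod2 and Tlr1 below 1 RPKM.

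None of the 10 genes was called different between CD34+ and CD34- cells. Across 13875 tested genes, edgeR's quasi-likelihood test at an adjusted p of 0.05 called 0 genes, 0% of those tested, and 0 of the 9 tested members. Without adjustment the same threshold was passed by 16.5% of all genes and by Nod2 alone among the members. Other tools called more genes, 339 higher and 195 lower with DESeq2 and 470 and 206 with edgeR's exact test, and 0 members; limma voom called 0 genes. A replicate block raised edgeR's calls to 0.447% of genes, with 0 members among them. The libraries of the groups did not overlap for 4 of the 9, Tlr5, Ticam1, Nod1 and Nod2, all higher in CD34+. This was so for 50.1% of all tested genes, 23.4% higher and 26.6% lower, so the share among the 9 is near the background. Nod2 entered the test only through its CD34+ libraries, so a difference in that direction was built into its passing the filter on low counts, and Tlr1 did not pass. Tlr5 would not have passed by its CD34- libraries alone.

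**Figure D2:**
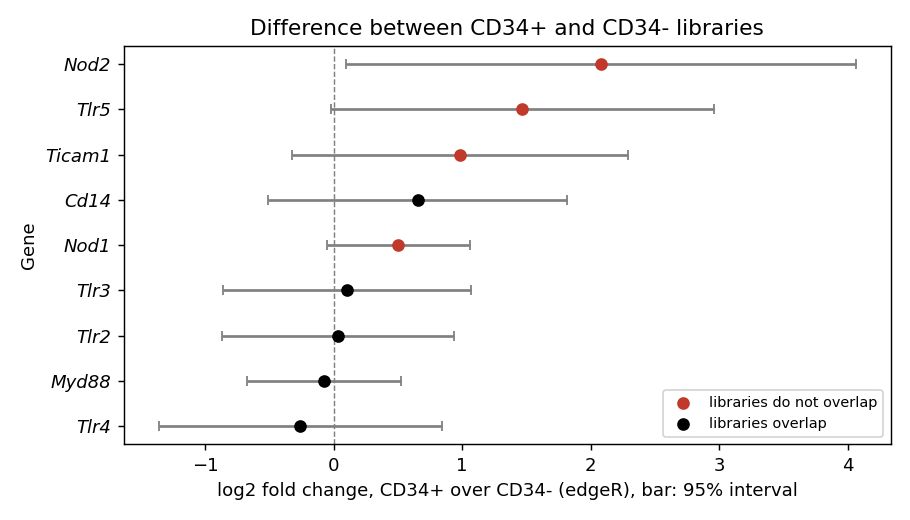
Log2 fold change of CD34+ over CD34- libraries for the 9 tested genes, from edgeR, with 95% intervals; red marks genes whose 4 libraries do not overlap by group. The intervals of the other 8 genes include 0; that of Nod2, from 0.09 to 4.06, is not read as a test, since Nod2 passed the filter on low counts only through its CD34+ libraries.

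Among the receptors of the cell surface, Tlr2 recognizes bacterial lipoproteins as a partner of TLR1 or TLR6. Its level was 17.0 and 25.6 CPM in CD34+ and 15.96 and 25.6 CPM in CD34- libraries. Both fractions held 1 lower and 1 higher library, and the groups overlapped. The log2 fold change was 0.03 (SE 0.37, adjusted p = 0.970, edgeR), with a 95% interval for the fold between 0.548 and 1.92. On the deposited RPKM (pseudocount of 1) and FPKM scales, where the median of all tested genes was -0.31, Tlr2 turned negative (-0.29 and -0.28). Its partner Tlr1 had 1 and 3 counts in CD34+ and 2 and 0 counts in CD34- libraries, at most the 3 counts that a count of 0 allows, so no fold is given. Tlr6, the other partner, lay between 0.581 and 0.983 CPM in all 4 libraries and was too low to be tested.

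Tlr4, the receptor of bacterial lipopolysaccharide, was 6.20 and 14.8 CPM in CD34+ libraries and 12.4 and 13.0 CPM in CD34- libraries. CD34+ replicate 1 stood below the other 3, which differed little. The log2 fold change was -0.26 (SE 0.45, adjusted p = 0.797, edgeR), and it turned to 0.21 without CD34+ replicate 1 and was -1.02 without CD34+ replicate 2. On the estimated fragment counts it was 0.04. Tlr5, the flagellin receptor, was 1.55 and 2.20 CPM in CD34+ and 0.454 and 0.888 CPM in CD34- libraries, and the groups did not overlap. These rest on 16, 30, 6 and 13 counts. By edgeR the log2 fold change was 1.47, with an SE of 0.61 and an adjusted p of 0.308, and it was positive under all 18 alternatives. The 6 counts of CD34- replicate 1 lay below the minimum count of 10, so the CD34- libraries alone would not have passed the filter. Under the filter of 1 CPM in 2 libraries, Tlr5 passed only through its CD34+ libraries. Filtering on low counts thus favoured the positive direction of Tlr5. Summed by group, the 46 against 19 counts give a ratio of 2.81. By edgeR the 95% interval for the fold of Tlr5 ran from 0.984 to 7.765.

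Cd14 encodes the protein that hands lipopolysaccharide to TLR4 and its partner MD-2, and it is also a marker of monocytes. Cd14 was 115 and 54.2 CPM in CD34+ libraries and 76.1 and 34.8 CPM in CD34- libraries. The groups overlapped, since CD34- replicate 1 lay above CD34+ replicate 2. The log2 fold change was 0.65 (SE 0.48, adjusted p = 0.516, edgeR), and without CD34+ replicate 1 it was -0.018. The libraries fell in the order CD34+ replicate 1, CD34- replicate 1, CD34+ replicate 2, CD34- replicate 2. Of the 16 macrophage and monocyte markers, 9 had this same order, against 6.68% of all tested genes. The part of such cells in the Cd14 values was not tested.

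**Figure D3:**
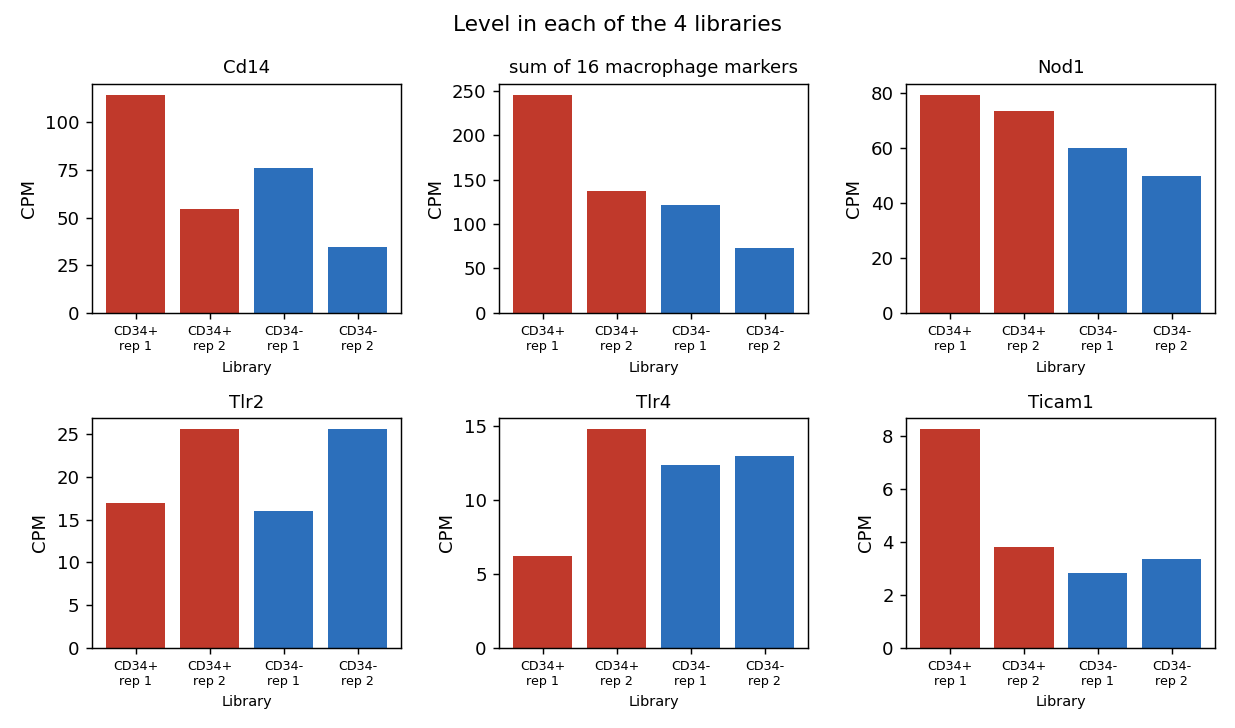
CPM in each of the 4 libraries (red CD34+, blue CD34-, bars from 0) for Cd14, the sum of 16 macrophage and monocyte markers, Nod1, Tlr2, Tlr4 and Ticam1. Cd14 is highest in CD34+ replicate 1 at 115 CPM, Nod1 is higher in both CD34+ libraries, and Tlr4 is lowest in CD34+ replicate 1 at 6.20 CPM.

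The other proteins that bring ligands to these receptors, or the receptors to their compartments, differed widely in level. Of 7 tested, 6 had a positive log2 fold change and 0 passed (edgeR), with a median of 0.21 that was -0.21 on the RPKM scale with a pseudocount of 1, or 0.23 and 0.092 above the median of all genes on each scale. Lbp, encoding the lipopolysaccharide-binding protein that loads CD14, was 1121 and 3110 CPM in CD34+ and 620 and 1540 CPM in CD34- libraries, and per length it stood at 4.83 to 34.0 times Cd14 within a library. The Lbp libraries overlapped between groups (log2 fold change 0.95, adjusted p = 0.494, edgeR). Ly96, encoding MD-2, was 6.68 and 8.498 against 4.92 and 5.54 CPM without overlap (0.55, adjusted p = 0.507, edgeR), and per length it was 2.53 to 6.88 times Tlr4. Cd14 was 47.4 and 9.41 times Tlr4 in the CD34+ libraries and 15.8 and 6.88 times Tlr4 in the CD34- libraries, both in RPKM. Hsp90b1 (gp96), the chaperone of Toll-like receptors, lay between 1181 and 1739 CPM, its co-chaperone Cnpy3 between 40.9 and 49.9 CPM, and Unc93b1, which carries endosomal receptors, between 35.2 and 51.5 CPM, all with overlapping groups. Cd36, a scavenger receptor, was at most 4.03 CPM, Ly86 (MD-1) at most 2.81 CPM, and Cd180, which pairs with MD-1, at most 0.147 CPM.

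Tlr3, the endosomal receptor of double-stranded RNA, was 7.85 and 9.45 CPM in CD34+ and 6.51 and 9.64 CPM in CD34- libraries. The groups overlapped. By edgeR the log2 fold change was 0.10, with an SE of 0.40 and an adjusted p of 0.914, and it was negative on the RPKM scale (-0.16 with a pseudocount of 1). On that scale the median of all tested genes was -0.31. The remaining receptors were near the detection limit: Tlr7, Tlr8, Tlr9 and Tlr11 were at most 0.757 CPM in every library, and Tlr13 lay between 0.205 and 1.26 CPM. Tlr12, a mouse sensor of profilin, was 0.484 and 0.147 CPM in CD34+ against 1.89 and 1.91 CPM in CD34- libraries, which are 7 against 53 counts by group. By edgeR its log2 fold change was -2.60, with an adjusted p of 0.216, and it ran from -3.63 to -0.51 over the alternatives. edgeR's exact test called Tlr12 (adjusted p = 0.0267), but it passed the filter only through its CD34- libraries, which selects for that direction.

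The cytosolic receptor Nod1 was 79.4 and 73.6 CPM in CD34+ libraries and 60.1 and 49.6 CPM in CD34- libraries. Both CD34+ libraries lay above both CD34- libraries. The log2 fold change was 0.50 (SE 0.23, adjusted p = 0.335, edgeR), a fold of 1.42 with a 95% interval from 0.963 to 2.09. On the FPKM scale the log2 fold change of Nod1 was -0.09, where the median of all tested genes was -0.31. By RPKM the Nod1 groups overlapped. Nod2 had 11 and 11 counts in CD34+ and 5 and 1 counts in CD34- libraries, or 1.07 and 0.806 against 0.378 and 0.0683 CPM. By group these are 22 against 6 counts. The fitted log2 fold change of Nod2 was 2.08 with an adjusted p of 0.291 (edgeR), a description only, because the filter on low counts had selected for that direction. Per length, Nod1 exceeded Nod2 by 79.7 to 776 times within a library, the highest of these ratios resting on 1 count of Nod2.

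The adaptor Myd88 was 79.0 and 96.9 CPM in CD34+ and 89.9 and 97.4 CPM in CD34- libraries. The groups overlapped. By edgeR the log2 fold change was -0.08, with an SE of 0.25 and an adjusted p of 0.892, and had a 95% interval for the fold from 0.626 to 1.44. On the RPKM and FPKM scales both CD34+ libraries of Myd88 lay below both CD34- libraries, where the same held for 46.6% of all genes on each scale. Those scales shifted the median log2 fold change of all genes from -0.02 to -0.31, and upper quartile scaling gave Myd88 a positive sign (0.0075). Ticam1 was 8.23 and 3.81 CPM in CD34+ and 2.80 and 3.35 CPM in CD34- libraries, so the groups did not overlap but only CD34+ replicate 1 stood apart. By edgeR its log2 fold change was 0.98, with an SE of 0.54 and an adjusted p of 0.403, and it was 0.29 without CD34+ replicate 1 and 1.43 without CD34+ replicate 2. Myd88 exceeded Ticam1 per length 14.2 times in CD34+ replicate 1 and 37.8 to 47.7 times in the other 3 libraries.

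Promoter sequences were read to show which members carry motifs of the factors that these receptors activate. Windows of 250 bases before to 50 after a start site came from RefSeq (GRCm38.p6), and 10 of them, from 8 of the 10 genes, were read. They were searched on both strands for the NF-kB motif, for the interferon-stimulated response element (ISRE: GAAA, any 2 bases, GAAA) and for the AP-1 motif TGANTCA, which 8.5%, 3.4% and 7.8% of all 32851 windows hold. Tlr2 held 3 matches to the NF-kB motif, 2 of them overlapping at bases -173 to -163, Tlr3 held 1 and Myd88 held 1 match to the ISRE. The windows of Tlr1, Tlr5, Nod1, Nod2 and Ticam1 held none of the 3. Tlr4 and Cd14 were not searched. No window was found for Tlr4, and windows on 1 chromosome, that of Cd14 among them, were left out of the search of the 10 genes. The windows with matches and, as one without, the first of the 2 Nod1 windows are shown 5′ to 3′ on the gene's strand, with matches in capitals. Tlr2 is at chr3:83841559-83841858, Tlr3 at chr8:45410331-45410630, Myd88 at chr9:119339969-119340268 and Nod1 at chr6:54972563-54972862, all on the minus strand.
Tlr2: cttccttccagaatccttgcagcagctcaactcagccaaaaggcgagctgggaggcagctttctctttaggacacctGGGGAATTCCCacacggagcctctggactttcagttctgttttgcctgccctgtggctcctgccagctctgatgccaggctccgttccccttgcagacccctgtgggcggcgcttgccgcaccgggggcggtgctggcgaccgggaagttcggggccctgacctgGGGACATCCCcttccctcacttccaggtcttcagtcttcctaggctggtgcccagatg
Tlr3: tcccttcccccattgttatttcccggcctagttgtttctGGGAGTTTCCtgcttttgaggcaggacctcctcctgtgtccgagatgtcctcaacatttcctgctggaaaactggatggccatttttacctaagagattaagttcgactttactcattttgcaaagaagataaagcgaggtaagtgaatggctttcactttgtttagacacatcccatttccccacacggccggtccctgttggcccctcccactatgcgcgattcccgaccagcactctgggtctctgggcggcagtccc
Myd88: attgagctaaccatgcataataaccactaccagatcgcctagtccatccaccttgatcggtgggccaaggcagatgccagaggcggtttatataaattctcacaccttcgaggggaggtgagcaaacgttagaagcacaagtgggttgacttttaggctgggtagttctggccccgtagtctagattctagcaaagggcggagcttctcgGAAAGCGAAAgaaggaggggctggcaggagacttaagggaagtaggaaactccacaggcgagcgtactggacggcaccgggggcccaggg
Nod1: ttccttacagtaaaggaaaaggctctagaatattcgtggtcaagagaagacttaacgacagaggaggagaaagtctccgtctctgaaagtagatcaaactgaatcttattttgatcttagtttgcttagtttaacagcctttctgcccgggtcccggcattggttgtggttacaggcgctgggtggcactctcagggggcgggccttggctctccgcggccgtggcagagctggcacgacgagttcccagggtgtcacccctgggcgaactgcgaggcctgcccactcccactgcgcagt
A match describes the letters of a window and does not show that a factor binds there.

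Downstream of the receptors, genes of the pathway were read in 8 lists of 76 genes, of which 65 were tested and 0 passed after adjustment. Without adjustment 14 of them passed as higher in CD34+ and 3 as lower (edgeR), as did 9.81% and 6.65% of all genes. Of the 14, 9 were in the list of secreted genes, which was chosen with differences already known. The filter on low counts was passed by Ccl5 and Sarm1, among the 14, only through CD34+ libraries. Tlr12, among the 3, passed it only through CD34- libraries. The pooled count is therefore not read against the share of all genes. In the MyD88 branch 8 of 11 genes had a negative log2 fold change, with a median of -0.30 against -0.02 over all tested genes. That median was -0.082 on estimated fragment counts, -0.635 on the RPKM scale with a pseudocount of 1 and -0.455 on the FPKM scale. Relative to the median of all genes on the same scale it was -0.284 by counts, -0.328 by RPKM and -0.146 by FPKM. For 6 of the 11 genes the CD34+ libraries lay below the CD34- libraries, as for 26.6% of all genes. The lowest p was that of Irak2, a kinase recruited by MyD88, at 25.7 and 29.5 CPM in CD34+ and 42.8 and 45.4 CPM in the CD34- fraction (log2 fold change -0.66, SE 0.24, adjusted p = 0.273, edgeR). Ikbkg (NEMO, the regulatory subunit of the IKK complex), the bridging adaptor Tirap and the kinase gene Map3k7 (TAK1) had log2 fold changes of -0.68, -0.40 and -0.41 and adjusted p of 0.327, 0.422 and 0.466 (edgeR). Irak1, named after its values were seen, lay the other way, at 149 and 129 against 118 and 104 CPM.

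In the TRIF branch 4 of 5 tested genes were positive with a median of 0.42, which was 0.0076 on the RPKM scale with a pseudocount of 1 and -0.15 on the FPKM scale. Relative to the median of all genes on the same scale it was 0.44 by counts, 0.31 by RPKM and 0.16 by FPKM. The ubiquitin ligase gene Traf3 was 63.6 and 34.7 CPM in CD34+ and 28.6 and 32.2 CPM in the CD34- fraction (log2 fold change 0.71, adjusted p = 0.369, edgeR). As for Ticam1, its high value was in CD34+ replicate 1, without which the log2 fold change of Traf3 was 0.18 and that of Tbk1 0.078. Tbk1 and Ikbke, the kinases that activate IRF3, had log2 fold changes of 0.52 and 0.42, and Ripk1 0.06 with overlapping groups; Ikbke turned negative on the FPKM scale (-0.15) and Ripk1 on RPKM (-0.34) and FPKM (-0.30). In the NOD branch 2 of 5 tested genes were positive, with a median of -0.32 that was -0.033 on estimated fragment counts. The NOD branch median was -0.616 on the RPKM scale with a pseudocount of 1 and -0.299 on the FPKM scale. Relative to the median of all genes on the same scale it was -0.299 by counts, -0.309 by RPKM and 0.00994 by FPKM. Birc2 and Birc3, the cIAP ubiquitin ligases, were 63.6 and 55.0 against 35.6 and 37.9 CPM and 129 and 145 against 45.8 and 96.5 CPM (log2 fold change 0.71 and 0.94, adjusted p = 0.257 and 0.325, edgeR). The kinase gene Ripk2, through which both NOD proteins signal, was 17.2 and 17.1 against 21.0 and 25.5 CPM (-0.42, adjusted p = 0.476, edgeR). Erbb2ip, whose product binds NOD2, was 41.6 and 65.5 against 84.5 and 106 CPM (-0.82, adjusted p = 0.285, edgeR).

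Other innate sensors were positive for 7 of 11 tested genes, with a median of 0.37 that was -0.016 on the RPKM scale with a pseudocount of 1, or 0.39 and 0.29 above the median of all genes on each scale. Pycard, the inflammasome adaptor, was 21.6 and 23.2 CPM in CD34+ and 10.1 and 14.2 CPM in the CD34- fraction (log2 fold change 0.88, adjusted p = 0.272, edgeR). Clec7a (Dectin-1), a receptor of fungal glucan found on myeloid cells, was 35.4 and 10.5 against 5.07 and 7.72 CPM (1.85, adjusted p = 0.255, edgeR), with its high value in CD34+ replicate 1. DESeq2 called Clec7a (adjusted p = 0.0486), and without CD34+ replicate 1 its log2 fold change was 0.70 by edgeR. Dhx58 (LGP2) and Zbp1, both sensors of nucleic acids, had log2 fold changes of 0.78 and 0.39 and adjusted p of 0.330 and 0.526 (edgeR); Zbp1 turned negative on the RPKM (-0.016) and FPKM (-0.048) scales.

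Negative regulators of the pathway were positive for 9 of 11 tested genes with a median of 0.47, which was 0.031 on the RPKM scale with a pseudocount of 1 and -0.0069 on the FPKM scale. Relative to the median of all genes on the same scale it was 0.49 by counts, 0.34 by RPKM and 0.30 by FPKM. Sarm1, among the 9, was 1.16 and 1.39 CPM in CD34+ and 0.303 and 0.342 CPM in CD34- libraries. It passed the filter on low counts only through its CD34+ libraries, which selects for a positive sign. Irak3 (IRAK-M), which restrains MyD88 signalling, was 55.9 and 42.5 CPM in CD34+ and 23.6 and 27.5 CPM in the CD34- fraction (log2 fold change 0.96, SE 0.28, adjusted p = 0.227, edgeR). Nfkbia, encoding the NF-kB inhibitor I-kappa-B-alpha, was 2845 and 2332 against 1297 and 1891 CPM (0.71, adjusted p = 0.408, edgeR). Zc3h12a (Regnase-1), a ribonuclease of cytokine transcripts, and Socs1 overlapped between groups, with log2 fold changes of 0.88 and 0.81 and adjusted p of 0.391 and 0.449 (edgeR). Leaving out a library moved Zc3h12a between 0.37 and 1.56 and Socs1 between 0.21 and 1.56.

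Secreted genes that these pathways are known to induce had the highest median of the 7 lists with at least 3 tested genes, 1.46, and 12 of 13 tested genes were positive. Without adjustment 9 passed as higher and 0 as lower (edgeR), and after adjustment 0 did. Ccl5, among the 9, was 0.969 and 1.03 CPM in CD34+ and 0.0757 and 0.342 CPM in CD34- libraries. It passed the filter on low counts only through its CD34+ libraries, which selects for that direction. Of all tested genes, 9.81% passed as higher and 6.65% as lower without adjustment, and 6756 of 13875 were positive. Csf3, encoding the neutrophil growth factor G-CSF, was 75.0 and 36.8 CPM in CD34+ and 2.42 and 12.8 CPM in the CD34- fraction (log2 fold change 2.85, adjusted p = 0.218, edgeR). Lcn2, Ccl2 and Cxcl5 had log2 fold changes of 3.22, 2.21 and 0.88 and adjusted p of 0.101, 0.214 and 0.209 (edgeR). Some alternatives called these genes. Lcn2 passed in 6 of 18, with adjusted p of 3.8e-14 by DESeq2, 1.1e-14 by edgeR's exact test, 0.00044 by edgeR without a filter, 0.015 by edgeR with a replicate block, and 0.042 and 0.020 by limma on RPKM with a pseudocount of 1 and 0.1. Ccl2 and Csf3 each passed in 3 of 18, with adjusted p of 0.0011 and 0.00095 by DESeq2, 0.014 and 0.019 by edgeR's exact test, and 0.036 and 0.026 by edgeR without a filter. Leaving out a library moved Csf3 between 2.04 and 4.61 and Ccl2 between 1.60 and 3.18, the highest of both without CD34- replicate 2. This list holds genes whose difference was already known in these libraries when it was chosen, so its direction is no independent evidence. The summed macrophage, neutrophil, endothelial, mesothelial and lymphocyte markers were higher in both CD34+ libraries than in both CD34- libraries, and their part in these values was not tested. Single markers did not all go this way. Log2 fold changes were positive for 15 of 16 tested macrophage, 3 of 5 neutrophil, 7 of 9 endothelial and 3 of 5 mesothelial markers (edgeR). The neutrophil markers Retnlg, Ngp and Camp were too low to be tested and had lower means in CD34+. Their mean CPM was 0.3651 against 0.5601, 0.1832 against 0.7797 and 0.2186 against 0.7992. The endothelial markers Emcn and Esam were lower in CD34+ without overlap, and no lymphocyte marker was tested. Of the mesothelial markers, Wt1 was 206 and 120 against 57.7 and 79.3 CPM. Msln was 49.8 and 13.8 against 75.0 and 11.6 CPM, with overlapping groups. The mesothelial markers Upk3b and Lrrn4 and the endothelial marker Cldn5 passed the filter on low counts only through CD34+ libraries, which selects for a positive sign. The neutrophil sums were 22.6 and 29.5 against 21.6 and 15.99 CPM. Cxcr2 made up 12.303 CPM of the sum in CD34+ replicate 1 and 2.799 CPM of that in CD34- replicate 1. Without Cxcr2 the neutrophil sums would overlap between groups. The lymphocyte sum of CD34+ replicate 1, 21.9 CPM, was mostly Cd3e at 18.99 CPM.

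**Figure D4:**
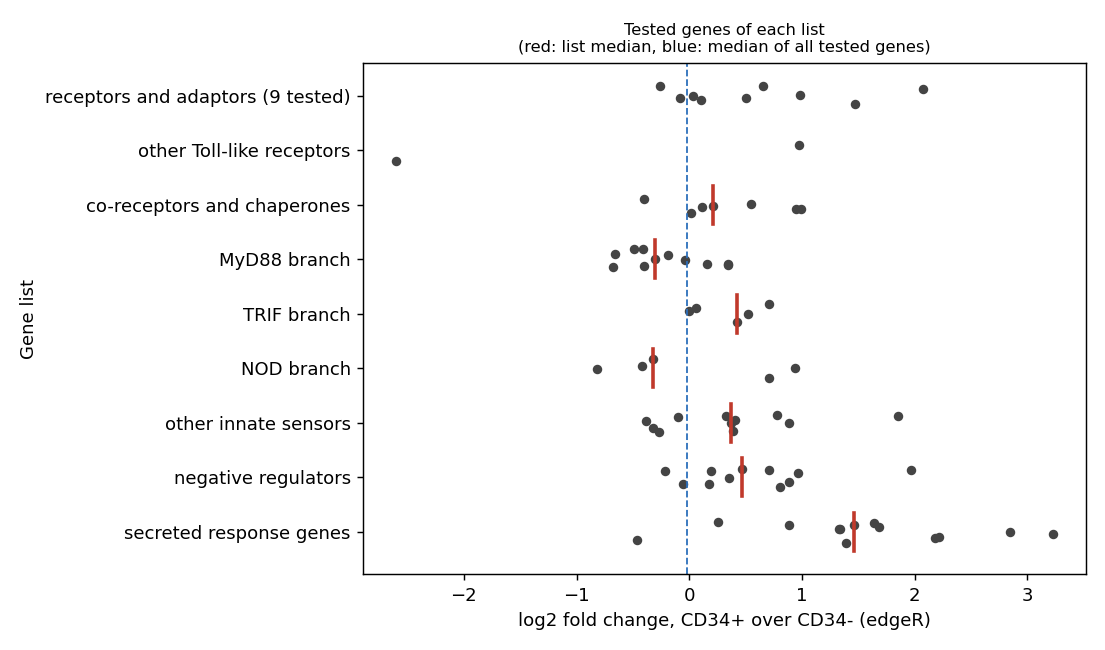
Log2 fold change of CD34+ over CD34- libraries (edgeR) for the tested genes of the 10 chosen genes and of 8 pathway lists, 1 point per gene, with the median of each pathway list of over 2 genes in red and that of all tested genes (-0.02) dashed in blue. Secreted response genes lie to the right with a median of 1.46, and MyD88 branch genes to the left with a median of -0.30.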

How the data were processed

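Per the submitters' processing notes, Bowtie2, TopHat2, HTSeq and edgeR are named with mouse build mm9, without roles; for versions, annotation and strand, nothing is given in the sources used here. Per the labels' protocols, RNA was prepared with Purelink and amplified with MessageAmp, so amplified copies are not independent molecules. The authors deposited whole-number counts per gene for 22609 genes, not normalized, and RPKM values for the same genes, whose scaling totals are not the sums of the counts. They also deposited FPKM values, bias-adjusted by the authors' name for the table, and estimated counts of fragments, rounded here, both for 22558 genes. A further 14 columns in each deposited table belong to no library described here and were left out, and the published data the study compared with were not analysed here. Groups and replicate numbers came from the titles. Which animals stand behind a library is not stated, so p-values measure the spread between these libraries.

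The test of the counts was edgeR's quasi-likelihood one (version 4.0.16, R 4.3.3; TMM scaling, filterByExpr with a minimum count of 10, group as the only term, all 4 libraries, two-sided), checked on simulated data; p was adjusted by Benjamini-Hochberg over 13875 genes at 0.05. The standard error is the log2 fold change over the square root of F, and intervals use it with the residual and moderated degrees of freedom (4.17 added to 2). An exact permutation test of 2 against 2 libraries cannot go below p = 0.333, so none was run. A count of 0 allows up to 3 counts, 0.205 to 0.291 CPM. Named were the 10 genes, every other Toll-like receptor and co-receptor or chaperone, up to 4 genes of smallest p from 5 CPM per other pathway list, the most abundant marker per cell type, and Cd34 and Fap. The genes and lists were chosen with earlier results of these data known. Alternatives used DESeq2 1.42.0, limma 3.58.1 (voom, or log2 of RPKM or FPKM with a pseudocount), other scalings and filters, a replicate block, and each library left out in turn.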

Additional observations from a re-analysis of the deposited data

How the results depend on the processing

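None of the 9 tested members was called under any of the 18 alternatives of the fit, with adjusted p of at least 0.168. Nod2 was not tested under the filter of 1 CPM in 2 libraries and had no adjusted p with DESeq2, so neither could call it. Tlr5 and Ticam1 kept a positive sign in all 18 (log2 fold change 0.18 to 2.11 and 0.14 to 1.43). For Tlr5 the filter on low counts favoured that sign. The sign of Nod2 is not read, since that filter selected for it. Over all genes, higher and lower calls were 2 and 0 with library totals only, with upper quartile scaling and with a filter of 1 CPM, 194 and 137 without a filter, 339 and 195 with DESeq2, 470 and 206 with edgeR's exact test, and 5 and 7 or 32 and 66 with limma on log2 RPKM with a pseudocount of 1 or 0.1. They stayed at 0 with RLE scaling, voom, FPKM, estimated fragments and unfiltered RPKM, and at 0 to 0 when a library was left out, where the single library of an arm takes its spread from the other arm. Fitted with a replicate block, edgeR called 39 higher and 23 lower and 0 members; the lowest adjusted p was that of Cd14 at 0.168. Cells were isolated in duplicate experiments, but the labels do not say that a number marks the experiment or shared animals. The replicate 1 minus replicate 2 differences of the fractions correlated at r = 0.241 across genes, which are not independent replicates. Members whose groups did not overlap numbered 4 by CPM and by TMM-scaled CPM and 3 by RPKM and FPKM. Leaving out a library gave 6 to 7, where 71.9% to 79.9% of all genes did not overlap.

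Signs turned as follows, and the cause was not tested beyond the shift of all genes on the RPKM and FPKM scales. The median of all genes was -0.31 on RPKM + 1 and on FPKM + 1. It was -0.42 on RPKM + 0.1 and -0.040 on RPKM + 1 without a filter. Tlr2 was -0.049 without a filter, -0.013 with DESeq2, -0.29 on RPKM + 1 with and without a filter, -0.34 on RPKM + 0.1, -0.28 on FPKM + 1, and -0.35 to 0.50 leaving out a library. Tlr3 was -0.16 on RPKM + 1 with and without a filter, -0.26 on RPKM + 0.1, -0.010 on FPKM + 1, and -0.24 to 0.50 leaving out a library. Tlr4 was 0.038 on estimated fragments and -1.02 to 0.21 leaving out a library. Myd88 was 0.0075 with upper quartile scaling and -0.24 to 0.056 leaving out a library. Cd14 was -0.018 to 1.19 leaving out a library. Nod1 was -0.090 on FPKM + 1. Ikbke was -0.15 on FPKM + 1. Ripk1 was -0.023 without a filter, -0.34 on RPKM + 1 with and without a filter, -0.39 on RPKM + 0.1, -0.30 on FPKM + 1, and -0.43 to 0.40 leaving out a library. Zbp1 was -0.016 on RPKM + 1 with and without a filter, -0.018 on RPKM + 0.1 and -0.048 on FPKM + 1. Depth limits Tlr1, Nod2, Tlr5 and Tlr12, which rest on few counts.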

Other observations

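Some genes of immune cells stood highest in CD34+ replicate 1; Nlrp3 and Il1b were named after their values were seen. Nlrp3, the inflammasome sensor of myeloid cells, was 5.72 CPM there and 0.659, 0.530 and 0.273 CPM in CD34+ replicate 2 and CD34- replicates 1 and 2. In the same order of libraries, Nlrp3 had 59, 9, 7 and 4 counts. Cd3e, a subunit of the T cell receptor complex, was 18.99 CPM there and at most 0.293 CPM in the others, while Cd3g and Cd8a were 0.194 and 0.194 CPM there against 0.293 and 0.366 CPM in CD34+ replicate 2, and Cd4 had 4 counts. Il1b, encoding an interleukin that signals through MyD88, was 86.6 and 28.5 CPM in CD34+ and 30.9 and 12.4 CPM in CD34- libraries, the same order of libraries as Cd14.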
